A study of Mus musculus with 4 samples.

Results

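The tumour necrosis factor (TNF) ligand and receptor superfamily was examined in the open chromatin of mouse natural killer (NK) cells. Members were the protein-coding genes whose symbols start with Tnfsf (ligands) or Tnfrsf (receptors) followed by a number, and 31 of 21755 protein-coding genes of the autosomes and X met this rule. They comprised 11 ligand genes and 20 receptor genes. Superfamily genes with other names, such as Tnf, Fasl and Cd40, were not members and are described separately.

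In DNase-seq, the enzyme DNase I cuts where chromatin is accessible and the cut ends are sequenced. Short stretches protected from cutting within an accessible region are called footprints. There were 4 libraries, replicates 1 to 4, of primary NK cells from adult virgin female B6CASTF1/J mice aged 2 months, an F1 cross of C57BL/6J and CAST mice, without treatment named. All libraries formed 1 group, with no condition to compare, and the comparison made here is between ligand genes and receptor genes within each library. Each library had its own biosample but all carried a single donor identifier, and neither the tissue nor the cell sort is stated in the labels, so the SD over libraries may be technical in part.

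Ligands of the superfamily are mostly trimeric membrane proteins, often released as soluble trimers, and their receptors are membrane proteins with cysteine-rich extracellular domains. Receptors with a death domain can trigger apoptosis through FADD and caspase-8, receptors that bind TRAF adaptors activate NF-kB and support survival and costimulation, and decoy receptors bind ligand without signalling. In NK cells the superfamily is known for killing through TRAIL and Fas ligand and for costimulation through 4-1BB, GITR, OX40 and HVEM.

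The label of the cells was checked against marker genes before the members were read. A promoter is the DNA within 1 kb of any annotated transcript start, and a promoter with the authors' peak in at least 3 of the 4 libraries is called open. Of 10 NK markers, 6 were open (Ncr1, Eomes, Prf1, Gzmb, Il2rb and Nkg7), or 60%, against 54.9% of all protein-coding genes. The count of open NK markers alone therefore does not identify the cells. All 10 had a promoter peak in replicate 3, against 59.1% of all genes. Of 8 T cell markers 3 were open. Cd3d had 4.90, 5.80, 11.2 and 5.87 in replicates 1 to 4, a mean of 6.95 that only Il2rb among the NK markers exceeded, and Cd3g and Cd5 were open with means of 0.409 and 0.549. Cd3e, Cd4, Cd8a and Cd8b1 had no promoter peak in any library. Of 8 B cell markers 5 were open. Pax5, Ebf1 and Cr2 had a peak in all 4 libraries, with mean signals of 3.66, 1.75 and 1.44, and Cd79b and Ms4a1 were open with 0.650 and 0.530, while Fcer2a had no promoter peak in any library. Summed over the B cell list, the promoter signal was 6.66, 11.99, 5.12 and 10.9 in replicates 1 to 4, and summed over the NK list it was 21.4, 24.5, 60.3 and 21.4. Open markers were fewer in the myeloid list (2 of 8), the list of other innate lymphoid cells (1 of 5) and the erythroid list (1 of 4), and the stromal and endothelial list had 3 of 5. Replicate 3 thus had the highest NK marker signal and the lowest B cell marker signal, and it also had the longest peak list, with 69144 peaks against 44092, 47464 and 36247 in replicates 1, 2 and 4. The part of other cells and of list length in the member values was not tested beyond the settings given in the closing section.

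The sequences of 5 receptor promoters are shown first, because they include the highest promoter signals of the superfamily and a pair of near-copies. Each is the part of the open region that lies upstream of the annotated 5' end of the gene, read on the strand of the gene, 5' to 3', from the GRCm38.p6 genome (RefSeq), the same assembly as mm10. All printed letters and motif matches are those of this reference, and the CAST alleles of the F1 cells may differ and were not examined. Capitals mark bases covered by footprints in at least 3 of the 4 libraries, called recurrent footprints. The positions on mm10 are chr4:150914441-150914561 (plus strand) for Tnfrsf9, chr17:23677469-23677620 (minus strand) for Tnfrsf12a, chr7:143649662-143649780 (minus strand) for Tnfrsf22, chr7:143685873-143686000 (minus strand) for Tnfrsf23 and chr15:82224370-82224540 (minus strand) for Tnfrsf13c.
Tnfrsf9 promoter: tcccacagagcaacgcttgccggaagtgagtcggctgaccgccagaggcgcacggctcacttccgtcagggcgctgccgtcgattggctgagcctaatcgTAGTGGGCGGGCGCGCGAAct
Tnfrsf12a promoter: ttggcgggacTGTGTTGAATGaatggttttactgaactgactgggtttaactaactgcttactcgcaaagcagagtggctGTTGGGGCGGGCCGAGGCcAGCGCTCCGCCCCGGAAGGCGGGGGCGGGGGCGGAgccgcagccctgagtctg
Tnfrsf22 promoter: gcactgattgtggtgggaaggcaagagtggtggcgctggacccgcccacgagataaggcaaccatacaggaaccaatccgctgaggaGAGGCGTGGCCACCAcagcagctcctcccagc
Tnfrsf23 promoter: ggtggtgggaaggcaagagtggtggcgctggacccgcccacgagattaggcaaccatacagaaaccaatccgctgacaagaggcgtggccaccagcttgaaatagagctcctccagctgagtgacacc
Tnfrsf13c promoter: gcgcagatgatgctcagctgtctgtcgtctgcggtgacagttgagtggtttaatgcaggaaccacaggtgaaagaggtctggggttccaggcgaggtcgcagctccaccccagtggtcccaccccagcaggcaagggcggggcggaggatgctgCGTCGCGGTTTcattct

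The capitals of Tnfrsf9 form a single run of 19 bases that holds the GC box letters GGGCGGG, while its CGGAAGT matches, an ETS-type motif, lie in lower case outside recurrent footprints. Tnfrsf12a has 64 footprinted bases in 3 runs, and both of its GGGCGGG matches lie in them. Tnfrsf22 and Tnfrsf23, neighbours on chromosome 7, share the 15 letters GAGGCGTGGCCACCA, which form the recurrent footprint of Tnfrsf22. At Tnfrsf22, footprints covered 14, 15, 15 and 10 of these 15 bases in replicates 1 to 4. At Tnfrsf23 they covered 0, 15, 4 and 8 of the same letters, which did not meet the recurrence rule. The 300 bases around the starts of this pair were 78.6% identical, against 40.6% to 46.3% for the other 5 pairs compared among Tnfrsf22, Tnfrsf23, Tnfrsf26 and Tnfrsf1b. Reads could therefore be shared between Tnfrsf22 and Tnfrsf23, depending on how the authors treated reads with several positions, and both values are uncertain to that extent.

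Next are 5 distal regions, meaning open regions more than 1 kb from every protein-coding transcript start and inside a locus, the gene body plus 25 kb on either side. They are shown because they exceed the promoter signal of their gene or carry the clearest footprints, and they are read on the plus strand of mm10 with capitals as above. Their positions are chr4:145240781-145241080 for Tnfrsf1b (300 bases of an intronic region), chr4:145300318-145300617 for Tnfrsf8 (300 bases of an intronic region), chr17:57096641-57096820 for Tnfsf9 (intergenic, upstream), chr3:27345641-27345840 for Tnfsf10 (intergenic) and chr17:57167101-57167340 for Tnfsf14 (intergenic, with the start of Cd70, another TNF ligand gene, as its nearest). The Tnfsf10 region lies 28713 bp downstream of the Tnfsf10 start, and its nearest start is that of another gene, Ghsr.
Tnfrsf1b distal: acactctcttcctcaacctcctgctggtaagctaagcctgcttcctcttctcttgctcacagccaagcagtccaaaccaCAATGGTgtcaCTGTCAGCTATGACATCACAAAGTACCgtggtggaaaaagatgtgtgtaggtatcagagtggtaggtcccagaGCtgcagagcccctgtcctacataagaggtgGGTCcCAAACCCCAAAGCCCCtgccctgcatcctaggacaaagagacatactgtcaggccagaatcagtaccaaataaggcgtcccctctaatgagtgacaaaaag
Tnfrsf8 distal: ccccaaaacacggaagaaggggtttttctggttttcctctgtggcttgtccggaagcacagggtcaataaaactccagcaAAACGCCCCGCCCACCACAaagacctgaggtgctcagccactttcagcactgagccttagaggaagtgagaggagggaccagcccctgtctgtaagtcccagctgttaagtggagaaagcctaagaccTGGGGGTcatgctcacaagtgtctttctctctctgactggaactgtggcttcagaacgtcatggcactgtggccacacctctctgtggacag
Tnfsf9 distal: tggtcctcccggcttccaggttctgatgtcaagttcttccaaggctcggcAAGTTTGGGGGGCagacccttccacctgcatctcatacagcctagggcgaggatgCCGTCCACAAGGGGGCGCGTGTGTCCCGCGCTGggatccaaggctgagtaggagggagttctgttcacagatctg
Tnfsf10 distal: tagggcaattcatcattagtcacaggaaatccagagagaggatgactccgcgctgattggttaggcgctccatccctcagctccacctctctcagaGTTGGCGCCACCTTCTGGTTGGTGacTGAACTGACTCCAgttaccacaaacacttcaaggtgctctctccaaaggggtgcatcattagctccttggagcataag
Tnfsf14 distal: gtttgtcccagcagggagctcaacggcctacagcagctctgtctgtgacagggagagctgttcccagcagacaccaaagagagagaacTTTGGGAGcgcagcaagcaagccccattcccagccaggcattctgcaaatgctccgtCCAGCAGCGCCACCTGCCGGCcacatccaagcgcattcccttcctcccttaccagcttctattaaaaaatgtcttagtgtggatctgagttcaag

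The Tnfsf9, Tnfsf10 and Tnfsf14 sequences each hold a match to a CTCF-type motif, CCNNNAGNNGGC on either strand, that lies wholly in capitals. CTCF is a DNA-binding protein known for chromatin loops and insulation. The Tnfrsf8 sequence holds GGGCGGG on the minus strand, again wholly in capitals. A match is a run of letters and does not show which protein was bound.

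Promoters were open at 19 of the 31 members (61.3%), against 54.9% of all protein-coding genes. Open promoters were found at 4 of 11 ligands (36.4%) and at 15 of 20 receptors (75%), a difference of -38.6 points. With the shorter peak list of each library, 3 ligands and 9 receptors were open, a difference of -17.7 points and 7 fewer open members. The difference was -22.7 points when all 4 libraries had to have a peak and -21.4 points when 1 was enough. In all 4 libraries, 13 members had a promoter peak (3 ligands and 10 receptors), against 51.9% of all genes. No library had one at 7 members (4 ligands and 3 receptors), against 38.6% of all genes. The mean promoter signal over libraries, with 0 for no peak, had a median of 0.0976 over ligands, 0.708 over receptors and 0.664 over all members, against 0.846 over all genes. Where all 4 libraries had a peak, the median signal of the 13 members was 1.47, 1.70, 2.77 and 1.36 in replicates 1 to 4, against 3.98, 5.06, 6.25 and 3.82 for the 11287 such genes. The median of these members was thus below that of all such genes in each library, although Tnfrsf9 was above the median of all such genes in all 4 and Tnfrsf12a in replicate 1. The signal is the authors' value per peak, its scale is not stated, and no number of reads is given, so depth is unknown and no counting interval is given. In bulk chromatin, a site open in fewer cells and a site less accessible in each cell cannot be told apart.

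Library by library, the share of ligands with a promoter peak was 36.4%, 36.4%, 63.6% and 36.4% in replicates 1 to 4. For receptors it was 70%, 80%, 80% and 55%, and for all genes 55.3%, 56.8%, 59.1% and 54.2%. Ligands were below receptors in every library, with differences (ligand minus receptor) of -33.6, -43.6, -16.4 and -18.6 percentage points, a mean of -28.1 ± 12.9 (SD, n = 4). The narrowest gap was in replicate 3, where 3 more ligands had a peak, and the ligand and receptor ranges overlap across libraries. No p-value is given, since the members were chosen with these data known and an exact two-sided sign-flip test over 4 libraries cannot reach 0.05. Over a wider superfamily that adds 7 ligand and 8 receptor genes with other names, 8 of 18 ligands (44.4%) and 19 of 28 receptors (67.9%) were open. The added genes alone had the reverse order, with 4 of 7 ligands (57.1%) and 4 of 8 receptors (50%) open.

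**Figure D1:**
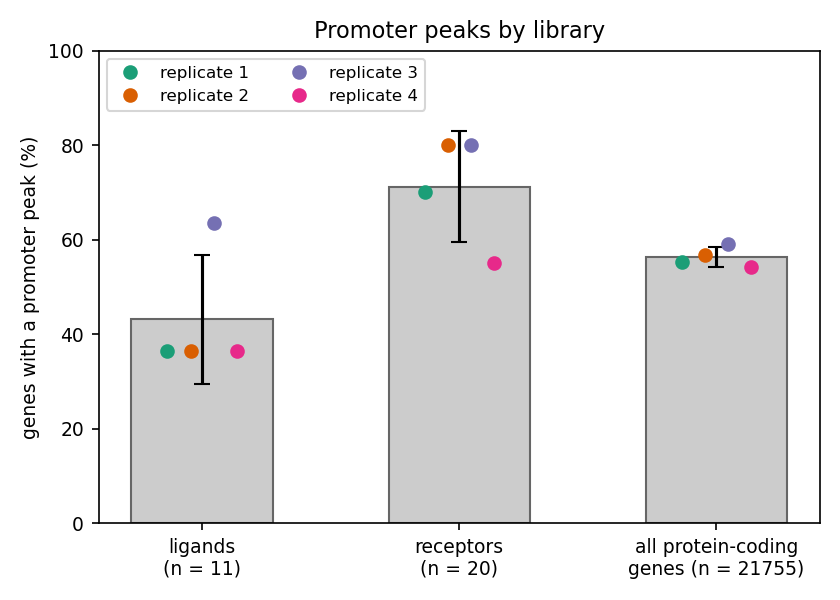
Percentage of genes with a promoter peak in each library for ligands, receptors and all protein-coding genes; points are libraries, bars the mean and error lines the SD (n = 4). Ligands were at 36.4% in 3 libraries and 63.6% in replicate 3, and receptors were between 55% and 80%.

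Among ligands, Tnfsf12 encodes TWEAK, a ligand known for tissue repair responses, and had the highest promoter signal. Its signals were 2.01, 2.37, 4.08 and 1.40 in replicates 1 to 4 (2.46 ± 1.15, SD, n = 4). The region at chromosome 11, 69695601 to 69696100, also lies at the start of Tnfsfm13, a read-through gene that joins Tnfsf12 and Tnfsf13, so it cannot be assigned to one of them. Tnfsf13 itself encodes APRIL, a plasma cell survival factor, lies 465 bp beyond the end of Tnfsf12 and had no promoter peak in any library. Replicate 3 was highest and replicate 4 lowest at Tnfsf12.

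Tnfsf10 encodes TRAIL, the death ligand by which NK cells kill some target cells. Its promoter signals were 1.47, 1.27, 1.54 and 0.567 (1.21 ± 0.444, SD, n = 4), in a region that spans the gene start. Tnfsf14 encodes LIGHT, which binds HVEM and the lymphotoxin beta receptor, and had 0.881, 0.967, 1.51 and 0.884 (1.06 ± 0.303). Replicate 4 was the low library at Tnfsf10, and replicate 3 stood above the others at Tnfsf14. Tnfsf9 encodes the ligand of 4-1BB and was the weakest open ligand, with 0.552, 0.544, 0.357 and no peak. Its region lay inside the gene, over a coding exon.

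The other ligands had few or no promoter peaks. Tnfsf11, the gene of the bone factor RANKL, had peaks in replicates 3 and 4 with signals of 0.482 and 0.509, centred 972 bp from the start in an intron. Tnfsf4, the gene of OX40 ligand, and Tnfsf13b, the gene of the B cell survival factor BAFF, each had a peak in replicate 3 alone, with signals of 0.390 and 0.266. Tnfsf8 (CD30 ligand), Tnfsf13 (APRIL), Tnfsf15 (TL1A) and Tnfsf18 (GITR ligand) had none. A peak found in replicate 3 alone came from the library with the most peaks.

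The costimulatory and TRAF-binding receptors held the highest promoter signal of all members. Of these 6 genes, 5 were open and only Tnfrsf4 (OX40) had no promoter peak in any library. Tnfrsf9 encodes 4-1BB (CD137), an activation-induced costimulatory receptor of NK and T cells. Its signals were 5.35, 8.69, 12.9 and 13.6 (10.1 ± 3.86, SD, n = 4), above the mean promoter signal of 91.6% of protein-coding genes. Replicate 4 was the highest library and replicate 1 the lowest, an order that no other open member showed at its promoter. The region, at chromosome 4, 150914441 to 150914700, also lies within 1 kb of a start of Park7, a redox-protective protein gene, and it cannot be assigned to Tnfrsf9 alone.

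Tnfrsf9 has 8 annotated starts, and 4 further promoter regions lay at internal starts, about 10 to 13 kb downstream inside the gene. The strongest of them, at chromosome 4, 150924281 to 150924740, had 2.49, 3.03, 7.46 and 3.56 (4.13 ± 2.26, SD, n = 4). Another, at 150927841 to 150928100, spans an internal start and had 1.56, 1.92, 6.05 and 2.73 (3.07 ± 2.05). Both were highest in replicate 3, unlike the region at the gene start, and both overlap introns of Camta1, a transcription factor gene annotated across the same DNA. The remaining pair had mean signals of 1.39 and 0.728.

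Tnfrsf1b encodes TNFR2, the TNF receptor without a death domain, and had 2.13, 2.80, 3.24 and 2.57 (2.68 ± 0.464, SD, n = 4). Tnfrsf18 encodes GITR and had 1.26, 1.43, 2.77 and 1.34 (1.70 ± 0.720). Tnfrsf14 encodes HVEM, a receptor of LIGHT and BTLA, and had 1.09, 0.957, 1.87 and 1.06 (1.24 ± 0.421). At Tnfrsf18 and Tnfrsf14, replicate 3 stood well above 3 close libraries, whereas the 4 libraries were evenly spread at Tnfrsf1b. Tnfrsf8 encodes CD30 and had no peak in replicate 1, then 0.846, 1.20 and 0.750 in replicates 2 to 4. Tnfrsf18 and Tnfrsf4 are 9.55 kb apart on chromosome 4, with a promoter peak in every library at Tnfrsf18 and in none at Tnfrsf4.

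Death-domain receptors were open with low signals at 3 of 4 genes. Tnfrsf21, the gene of death receptor 6, was the highest, with 0.823, 1.35, 0.972 and 0.663 (0.952 ± 0.293, SD, n = 4). Tnfrsf1a, the gene of TNFR1, the main receptor of soluble TNF, had 0.858, 0.836, 1.05 and no peak in replicate 4. Tnfrsf10b, the mouse death receptor for TRAIL, had 0.552, 0.584, 0.706 and no peak in replicate 4. Replicate 4 was the lowest library at each of the 3. Tnfrsf25 encodes death receptor 3, the receptor of TL1A, and had a promoter peak in replicate 3 alone, with 0.855.

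The mouse TRAIL decoy receptors Tnfrsf22 and Tnfrsf23 were both open in all 4 libraries, above the death receptor for the same ligand in each library. Tnfrsf22 had 2.63, 3.39, 3.26 and 1.53 (2.70 ± 0.850, SD, n = 4). Tnfrsf23 had 1.33, 1.70, 3.01 and 1.36 (1.85 ± 0.791). Tnfrsf22 was lowest in replicate 4, and Tnfrsf23 was highest in replicate 3 with the others close together. Tnfrsf26, a neighbour of this pair, had 0.928, 0.876, 1.07 and no peak in replicate 4. The third decoy gene, Tnfrsf11b, encodes the soluble RANKL decoy osteoprotegerin and had no promoter peak in any library.

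Receptors of B cell survival factors were open at 1 of 3 genes. Tnfrsf13c, the gene of the BAFF receptor, had 1.61, 1.91, 2.32 and 1.44 (1.82 ± 0.384, SD, n = 4). Its highest library was replicate 3, as at 12 of the 19 open members and at 76.9% of all open genes. Tnfrsf13b (TACI) had a peak in replicate 2 alone, with 0.503, and Tnfrsf17 (BCMA) had none. Whether B cells contributed to the Tnfrsf13c signal was not tested.

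Tnfrsf12a, the gene of Fn14, which is the receptor of TWEAK, had the next highest signal after Tnfrsf9. Its signals were 4.14, 4.50, 3.58 and 2.58 (3.70 ± 0.839, SD, n = 4), highest in replicate 2 and lowest in replicate 4. Tnfrsf19, the gene of TROY, had 0.799, 0.967, 0.382 and 0.509. Tnfrsf11a, the gene of the RANKL receptor RANK, had 0.447, 0.816, 0.490 and no peak. At Tnfrsf19, replicate 3 was the lowest library, and at Tnfrsf11a replicate 4 was without a peak.

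**Figure D2:**
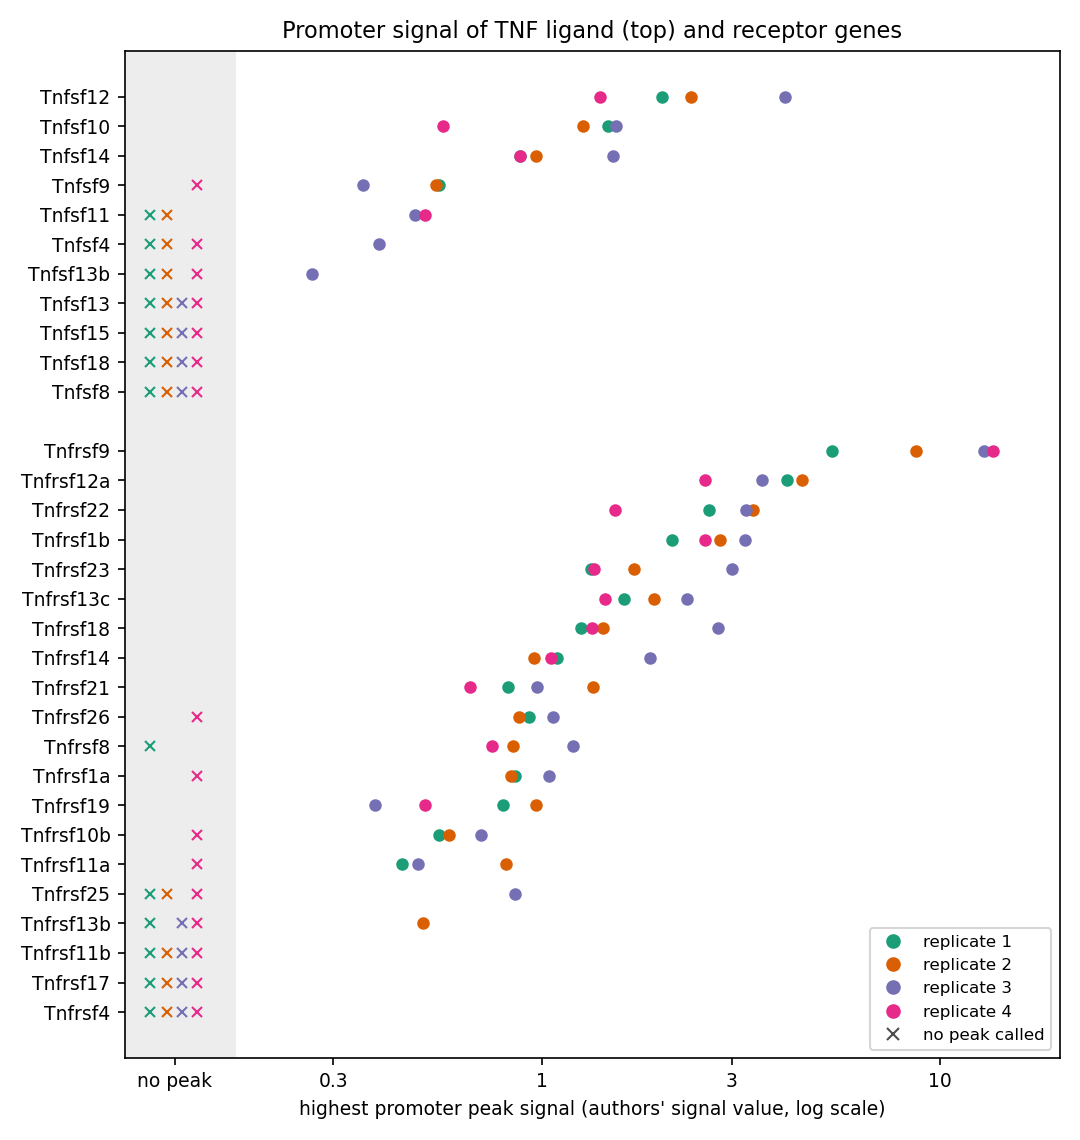
Highest promoter peak signal of each ligand (top) and receptor (below) in each library, on a log axis; points are libraries and crosses in the grey band mark libraries with no peak. Tnfrsf9 lay between 5.35 and 13.6, and every other member was at or below 4.50 in each library.

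Set beside their receptors, each of the 4 open ligands had an open receptor in the same libraries, where 15 of 20 receptors (75%) were open. Tnfsf10 had Tnfrsf10b, Tnfrsf22 and Tnfrsf23, and the pairs Tnfsf12 with Tnfrsf12a, Tnfsf14 with Tnfrsf14 and Tnfsf9 with Tnfrsf9 were open on both sides. Ltbr, the gene of the lymphotoxin beta receptor that LIGHT also binds, was not open. It had peaks in replicates 2 and 3 alone, with 0.614 and 0.424. Tnfrsf18, Tnfrsf8, Tnfrsf13c and Tnfrsf11a were open without an open promoter at their ligands Tnfsf18, Tnfsf8, Tnfsf13b and Tnfsf11, of which Tnfsf13b had a peak in 1 library and Tnfsf11 in 2. Both sides lacked an open promoter at Tnfsf4 with Tnfrsf4, at Tnfsf15 with Tnfrsf25 and at Tnfsf13 with Tnfrsf13b and Tnfrsf17. These pairings are background knowledge that was set beside the values after they were seen.

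The libraries did not contribute evenly to these calls. Of the 19 open members, 12 had their highest promoter signal in replicate 3, against 76.9% of all open genes. Their lowest library was replicate 4 at 11, against 50.4% of all open genes. Of the 6 open members that lacked a peak in 1 library, 5 lacked it in replicate 4 and 1 in replicate 1 (Tnfrsf8), and of the 655 such genes overall 69% lacked it in replicate 4. Replicate 4 has the shortest peak list.

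Bases that the authors list under a false discovery rate (FDR) of 0.05 were also counted in the same promoters. They derive from the same alignments as the peaks, so they are not independent of the peak calls. At least 3 libraries had such a base at 4 ligands and 15 receptors, 19 members in all (61.3%), against 55.7% of all genes. With an FDR under 0.001, 3 ligands, 10 receptors and 13 members (41.9%) kept one, against 51.8% of all genes. Tnfrsf9 had the most bases under 0.05, with 2109, 2302, 2702 and 1968 in replicates 1 to 4, over the longest promoter window of all members because of its 8 starts. In all 4 libraries, 0 bases were listed at Tnfsf13, Tnfsf15, Tnfsf18, Tnfrsf4, Tnfrsf11b and Tnfrsf17. Tnfsf8, which had no peak, had 31 listed bases in replicate 1 and 2 in replicate 3. In replicate 4, 0 bases were listed at Tnfsf9, Tnfrsf1a, Tnfrsf10b, Tnfrsf11a and Tnfrsf26, the 5 open members without a peak there.

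CpG-rich promoters, taken as 1 kb at the gene start with at least 50% GC and an observed to expected CpG ratio of at least 0.6, were less common among members than among all genes. They comprised 1 of 11 ligands (Tnfsf9), 7 of 20 receptors and so 8 of 31 members, against 44.8% of all genes. All 8 CpG-rich members were open, against 85% of CpG-rich genes. Of CpG-poor members, 3 of 10 ligands and 8 of 13 receptors were open, against 30.5% of CpG-poor genes. Receptors were thus open more often than ligands within the CpG-poor class as well, and the difference was not tested. The CpG-rich members ranged in mean signal from 0.363 at Tnfsf9 to 10.1 at Tnfrsf9.

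**Figure D3:**
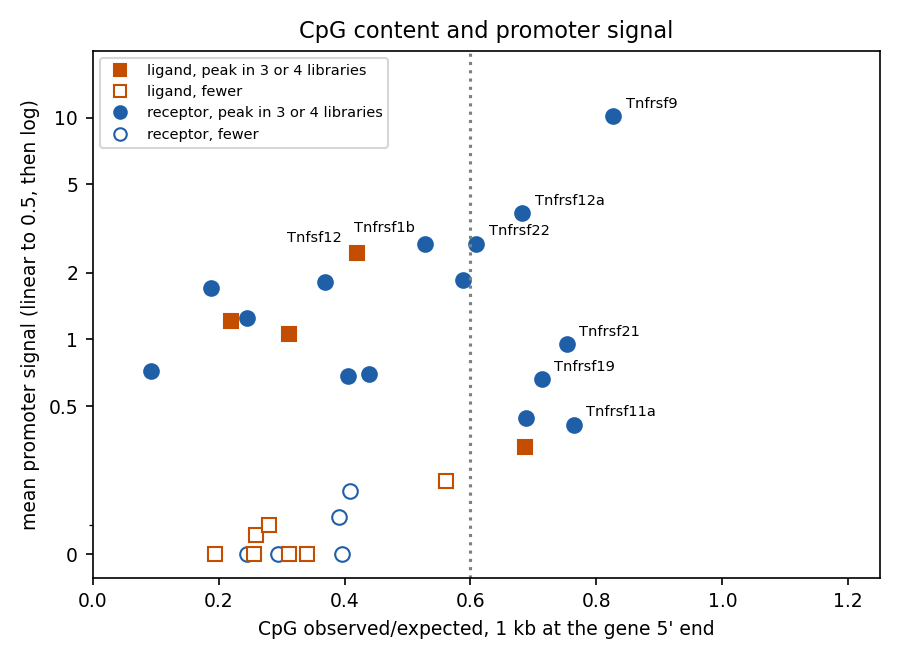
Mean promoter signal over 4 libraries (vertical, linear to 0.5 and then logarithmic) against the CpG observed to expected ratio of 1 kb at the gene start (horizontal) for each member; squares are ligands, circles receptors, filled symbols open promoters, and the dotted line is the ratio of 0.6. All 8 CpG-rich members are filled, and all unfilled symbols lie left of the line.

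Recurrent footprints were present in the promoter window of 10 members, against 49.1% of all genes and 89.3% of genes with an open promoter. They were found at 2 ligands, Tnfsf12 and Tnfsf14, and at 8 receptors, Tnfrsf9, Tnfrsf12a, Tnfrsf22, Tnfrsf1b, Tnfrsf23, Tnfrsf13c, Tnfrsf18 and Tnfrsf14. Tnfrsf9 had the most, with 9 over its windows. Footprint presence followed promoter signal. It was found at 0 of 8 open members with a mean signal under 1, against 26.5% of all open genes in that range. Between 1 and 2 it was found at 5 of 6 members (83.3%), against 84.1% of genes. From 2 upwards it was found at 5 of 5 members, against 98.3% of genes between 2 and 4 and 99.9% of genes from 4.

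Distal recurrent regions, those with a peak in at least 3 libraries, were counted over each locus. At least 1 was present at 8 of 11 ligands, 14 of 20 receptors and 22 of 31 members, against 54.7% of all genes. The ligand loci held 14 and the receptor loci 50, a mean of 1.27 per ligand and 2.5 per receptor, against 1.34 per gene over all genes. The medians were 1, 2 and 1. Per 100 kb of locus the median was 1.89 for ligands and 3.08 for receptors, against 0.862 for all genes. Over the wider superfamily, which adds genes with other names, the means were 2.56 per ligand and 2.25 per receptor. The medians there were 1 per ligand and 2 per receptor. That ligand mean can count a region more than once. Tnf, Lta and Ltb are neighbours on chromosome 17 and had 7 regions each in overlapping loci. Means with each region taken once were not computed for the wider superfamily, so the order of its means is uncertain. Loci of neighbouring members overlap, and each region taken once gave 58. Of these, 38 lay in introns, 18 were intergenic and 2 were in exons only, and for 35 the nearest protein-coding start was that of a member.

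**Figure D4:**
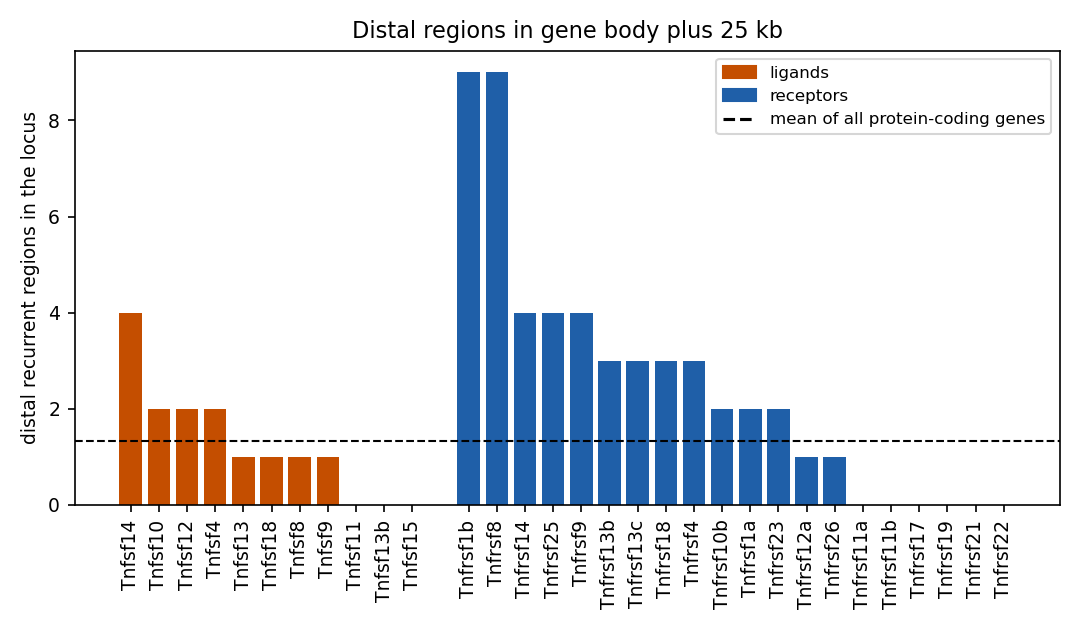
Number of distal recurrent regions in the locus (gene body plus 25 kb) of each ligand (left) and receptor (right); the dashed line is the mean of all protein-coding genes, 1.34. Tnfrsf1b and Tnfrsf8 have 9 each, no other member has more than 4, and 3 ligands and 6 receptors have 0.

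Tnfrsf1b (TNFR2) and Tnfrsf8 (CD30) had the most, with 9 each, a count that 1.12% of all genes reached. The genes lie 20.3 kb apart on chromosome 4 in the same orientation and share 2 of these regions, which leaves 16 different ones. Of the 16, 11 were found in all 4 libraries, as were 40 of the 58 over all member loci. The share over all distal recurrent regions was not computed. The median signals of the 16 were 1.49, 1.86, 3.60 and 1.31 in replicates 1 to 4. All 16 were highest in replicate 3, against 45 of 58 over all member loci and 72% of the 20438 distal recurrent regions of the genome. The strongest, in an intron of Tnfrsf1b about 5.9 kb from its start, had 4.65, 6.55, 9.73 and 3.99 (6.23 ± 2.58, SD, n = 4). In every library it exceeded the Tnfrsf1b promoter. The strongest region inside Tnfrsf8, in an intron, had 3.14, 3.68, 7.22 and 3.73 (4.44 ± 1.87), also above its promoter in every library. Both regions are printed above, with 56 and 26 bases of recurrent footprint in the stretches shown.

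**Figure D5:**
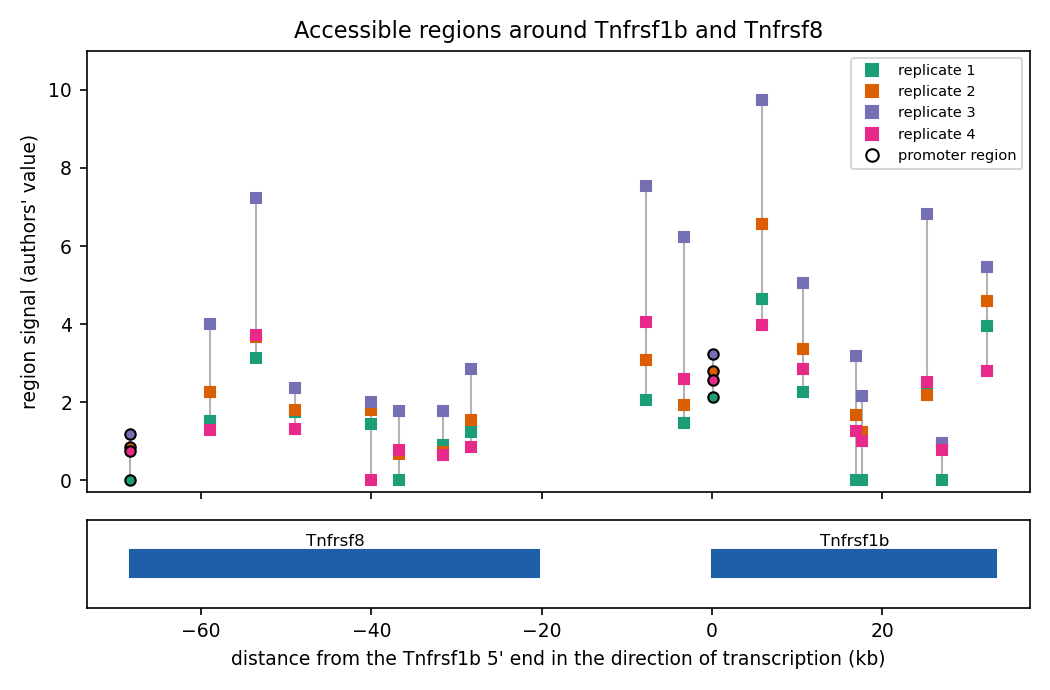
Signal of each open region (vertical, authors' value) by distance from the Tnfrsf1b start in the direction of transcription (horizontal, kb); squares are the 16 distal recurrent regions, outlined circles the promoter regions, colours the libraries, and blue bars the genes. Replicate 3 is the highest library at all 16 distal regions, and the 2 gene starts lie below the strongest intronic regions.

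Tnfrsf9, Tnfrsf25, Tnfrsf14 and Tnfsf14 followed with 4 distal regions each. In the Tnfrsf9 locus the strongest was at chromosome 4, 150965261 to 150965420, in a Camta1 intron, with 4.44, 4.55, 7.36 and 2.78 (4.78 ± 1.90, SD, n = 4). The Tnfrsf14 locus had 3.34, 4.02, 5.76 and 1.83 at chromosome 4, 154904521 to 154904760, which is intergenic and nearest to Fam213b. Both were highest in replicate 3. The Tnfsf14 locus had 1.82, 1.66, 1.87 and 0.846 at the printed region near Cd70, with 3 libraries close together and replicate 4 low.

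The strongest distal regions of the Tnfsf9 and Tnfsf10 loci were lower in mean signal than the strongest of the Tnfrsf1b, Tnfrsf8, Tnfrsf9 and Tnfrsf14 loci. The printed Tnfsf9 region, 8.6 kb upstream of the gene, had 2.86, 2.55, 2.69 and 1.55 (2.41 ± 0.589, SD, n = 4), several times the promoter values of Tnfsf9. The printed Tnfsf10 region had 1.96, 1.45, 2.23 and 1.09 (1.68 ± 0.511). Replicate 4 was lowest at both. Ligand genes without an open promoter could still hold distal regions. Tnfsf4 had 2 in its own introns, with mean signals of 0.838 and 0.839, and Tnfsf8 had 1 in an intron, with 0.782.

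Among open members with a distal region, the strongest distal region exceeded the promoter in mean signal at 12 of 15 (80%), against 25% of the 8320 such genes overall. These shares were not matched for promoter signal, and the median promoter signal of members was below that of all genes, as given above. The median mean signal of the 58 member regions was 1.35, against 1.08 for all distal recurrent regions. Of the 58, 37 held a recurrent footprint, and the share over all distal recurrent regions was not computed.

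Motif letters were counted in the central 200 bp of each region on both strands. The CTCF-type motif CCNNNAGNNGGC was present in 16 of the 58 member distal regions (27.6%), against 29% of all 20438. Over whole regions, 13 of its 20 matches at member loci (65%) lay wholly inside a recurrent footprint, against 37.6% of 6831 matches in all distal regions. These 13 include 3 in the Tnfrsf9 locus and 1 each at regions of Tnfsf9, Tnfsf10, Tnfsf12, Tnfsf14, Tnfrsf1b, Tnfrsf13b, Tnfrsf13c and Tnfrsf23, with 1 shared by Tnfrsf18 and Tnfrsf4. The comparison was not matched for signal, and the median mean signal was 1.35 over member distal regions against 1.08 over all. Its motif letters were also widened after sequences had been seen. The NF-kB-type motif GGGNNTTTC was in 3 of the 58 (5.17%), against 4.03% of all distal regions. The RUNX motif TGTGGTT was in 5 (8.62%) against 10.5%, and the ETS motif AGGAAGT in 7 (12.1%) against 13.5%.

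At 25 member promoter regions, GGGCGGG was present in 7 (28%), against 33.9% of 16157 promoter regions. The AP-1 motif TGANTCA was in 4 (16%), at Tnfrsf8, Tnfrsf9, Tnfrsf12a and Tnfrsf23, against 3.48%. At Tnfrsf9 it lay at an internal start, and at Tnfrsf12a in a weaker region inside the gene, with a mean signal of 0.961. Over whole regions, 0 of its 8 matches at members lay wholly inside a recurrent footprint, against 0.574% of 1045 matches in all promoter regions. The NF-kB-type motif was in 1 (4%), at an internal start of Tnfrsf9, against 3.13%. The CTCF-type motif was in 1 (4%), at Tnfrsf21, against 13.5%. Motifs are counted with any overlap, the CTCF form was widened after sequences had been seen, and no difference from all regions was tested.

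Genes of the pathway with other names showed a wider range. Signalling genes downstream of the receptors had a promoter peak in all 4 libraries at 22 of 22, against 51.9% of all genes. Their median mean signal was 5.34, against 0.664 over the members and 0.846 over all genes. In replicates 1 to 4 their medians were 5.25, 5.71, 8.16 and 4.66, against 3.98, 5.06, 6.25 and 3.82 for all genes with a peak in all 4. Of the 22 signalling genes 15 were CpG-rich, against 44.8% of all genes, and no comparison was matched for CpG class. The highest were Map3k14 (NIK, the kinase of the noncanonical NF-kB pathway) with 10.6, 15.1, 25.6 and 14.6, Tnfaip3 (A20, an inhibitor of NF-kB) with 11.5, 14.1, 21.6 and 17.8, Sharpin (a subunit of the linear ubiquitin ligase) with 10.9, 13.4, 17.4 and 11.5, and Birc3 (cIAP2, a ubiquitin ligase of TNF receptor complexes) with 7.85, 9.71, 18.8 and 15.7. Each was highest in replicate 3 and lowest in replicate 1.

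Of the 7 ligands with other names 4 were open. Fasl, the gene of the death ligand Fas ligand, had 2.36, 2.81, 5.47 and 1.87 (3.13 ± 1.60, SD, n = 4), above every Tnfsf member in mean signal. Ltb and Lta, the lymphotoxin genes, had mean signals of 1.47 and 1.21, and Tnf had 1.03 and 1.18 in replicates 2 and 3 and no peak in the other libraries. Cd40lg had no promoter peak in any library. Of the 8 receptors with other names 4 were open. Relt, a receptor of lymphoid tissue, had 7.43, 10.1, 12.3 and 8.90 (9.67 ± 2.06), close to Tnfrsf9. Cd27, a maturation marker of mouse NK cells, had a mean of 1.30, Fas had 1.10 and Cd40 had 0.696, while Eda2r had no promoter peak in any library.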

How the data were processed

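Open chromatin was measured by DNase-seq in 4 libraries of 1 group. Per the deposited readmes, the authors derived each file from the filtered alignments of that library to mm10, without pooling. Not given in the sources used here are the aligner, the callers and their settings. The authors' deposited peak lists give a signal value per peak, of unstated scale. Their FDR lists hold bases with a q-value (p-value column) under 0.05, and the deposited footprints carry a constant p-value. The longer of the 2 peak lists of each library was used.

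Genes and transcript starts came from GENCODE vM21. Peaks overlapping by 1 bp or touching were merged over libraries. Promoter signal is the highest peak within 1 kb of any start, 0 without a peak; recurrent means at least 3 of 4 libraries. Every member is named, with all library values for those open in at least 3 libraries. Pathway genes are the 4 with the highest mean signal per list, those without any peak, and Ltbr as a receptor of LIGHT. Distal regions are described for the 6 members with the most, and others were named after their values were seen. The strongest distal region of Tnfrsf25 and 1 marker gene are not reported here. The members and lists were chosen with earlier results of these data known. With 1 group and no contrast, no test of a difference was run, and counts stand beside those over all protein-coding genes. Python 3.11.15, numpy 2.4.6, pandas 2.3.3, pysam 0.24.0, samtools 1.23.1, biopython 1.88 and matplotlib 3.10.9 were used, and the counting steps were tested on simulated data. Alternatives were the shorter lists, other recurrence rules, windows, starts, flanks and scales, equal numbers of strongest peaks, and each library left out, recurrent then meaning at least 2 of the other 3. Dixon's test for an outlying library was applied to members with a peak in all 4. Motif letters were chosen after the data were seen.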

Additional observations from a re-analysis of the deposited data

Results flagged for a closer look

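Among the 13 members with a promoter peak in every library, 3 had 1 library far from the others, by the gap of the extreme library to its nearest neighbour over the range of the 4 libraries. Each lay above the 95% critical value of Dixon's test for 4 values. The library was replicate 3, and it was high, in each case. The ratio was 0.886 for Tnfrsf18, 0.865 for Tnfsf14 and 0.851 for Tnfrsf14. Chance flags about 1 in 20 groups. The test was not run over all genes, so the share flagged there is unknown. Replicate 3 was the highest library at 76.9% of all open genes. Replicate 3 also has the longest peak list and the highest summed NK marker signal, and the part of either in these values was not tested.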

How the results depend on the processing

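With the shorter peak lists, 12 members and 9 receptors were open, and the share of open ligands less that of open receptors was -17.7 points, against -38.6 with the longer lists; Tnfrsf1a, Tnfrsf8, Tnfrsf10b, Tnfrsf11a, Tnfrsf19, Tnfrsf26 and Tnfsf9 were no longer open. Requiring all 4 libraries gave -22.7 points, with 13 of 31 members open against 51.9% of all genes. Requiring at least 1 gave -21.4 points, with 7 ligands open. With at least 1 library there were 140 distal regions, 3.09 per ligand and 5.3 per receptor; the gene body alone gave 25, 0.455 and 1, a 10 kb flank gave 38 in all and a 50 kb flank 3.9 per receptor. Footprinted members numbered 4 with all 4 libraries and 21 with at least 1. These settings take fewer or more peaks, libraries or bases by construction. Equal numbers of strongest peaks (36247 per library) left 16 members open, without Tnfrsf10b, Tnfrsf11a and Tnfsf9. The 500 bp window, the gene start alone and protein-coding transcript starts left the open members as they were. Leaving out 1 library, with recurrence loosened to at least 2 of the other 3, gave 19 to 20 open members, 4 to 5 ligands, 15 receptors, -38.6 to -29.5 points, 65 to 79 distal regions, 1.36 to 1.91 per ligand and 2.5 to 3.1 per receptor, a median signal of 0.532 to 0.681 and 12 to 14 footprinted members; under that looser rule Tnfsf11, with peaks in replicates 3 and 4, counted as open without replicate 1 or 2. Among the members, ligands stayed below receptors in every setting run. The superfamily genes with other names were not part of these settings. Shares over all protein-coding genes were not computed for the shorter lists, equal numbers of strongest peaks, other windows or starts, or a library left out. How members stand against all genes there is unknown. Summing peaks raised the signal of 8 of 19 open members beyond 1 SD (Tnfrsf9 to 19.5), and the shorter list left Tnfrsf1a at 0. No paired analysis was possible because the libraries form 1 group, so that replicate numbers pair no samples across groups; ligand and receptor shares were subtracted within each library. Depth is unknown, so a missing peak says only that none was called, and signal differences between libraries may be ones of scale.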
